A study of Mus musculus with 23 samples.

Results

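The comparison described here set the hippocampi of 11-month-old tau transgenic mice that had received a control virus (PS19_HA) against those of wild-type mice of the same age and with the same virus (WT_HA). It used 6 of the 23 libraries of the series, 3 per group, chosen by their titles. PS19 mice carry a human tau transgene with the P301S mutation under the control of a Prnp promoter and are a common model of tauopathy. Both groups were of the C57BL/6 strain, the PS19_HA mice carried both wild-type copies of Lsd1, and in both an adeno-associated virus labelled as the HA control, with expression directed to neurons, had been put into the hippocampus, so no uninjected mice of that age entered the comparison. The other 17 libraries were used for the spread between samples or for the tau comparison at 9 months.

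In tauopathy, tau leaves microtubules, becomes heavily phosphorylated and aggregates in neurons. Microglia, the resident macrophages of the brain, then take on a disease-associated state with high expression of genes for lipid handling, lysosomes and phagocytosis. Astrocytes become reactive, with more of the intermediate filament proteins GFAP and vimentin. Complement proteins from both cell types tag synapses for removal, and interferon signalling raises a broad set of antiviral and antigen presentation genes through the transcription factor complex ISGF3.

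Poly(A)-selected RNA was counted per gene. PS19_HA libraries held 21715577, 22474579 and 23644702 counted reads, and WT_HA libraries held 23738050, 19646984 and 24551633. Mitochondrial genes took 4.395% to 5.553% of the reads in PS19_HA and 4.928%, 16.231% and 5.635% in WT_HA, so WT_HA replicate 2 stood apart. By Xist and Y-linked reads, replicates 1 and 2 of both groups were female-type and replicate 3 of both male-type. The 10 hippocampus markers were all detected in each library, but their summed level was lowest in the third replicates, at 594 CPM (read counts scaled to library size after TMM normalisation) in PS19_HA and 827 CPM in WT_HA, against 1370 to 1520 CPM in the other PS19_HA libraries and 1400 to 2100 CPM in the other WT_HA libraries. Summed neocortex markers were at 462, 457 and 1600 CPM in PS19_HA and 636, 618 and 763 CPM in WT_HA. Whether the amount of neighbouring tissue had a part in the results below was not tested. Since the types differ, the third replicates came from other mice than replicates 1 and 2, but the labels do not say that each library came from its own mouse, so part of the spread behind the p-values may be technical. In bulk tissue, fewer cells of a type and less RNA per cell cannot be told apart.

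The quasi-likelihood test of edgeR, the main test, called 3 of 19290 genes (0.0156%) at a Benjamini-Hochberg adjusted p under 0.05, and 1665 genes had an unadjusted p under 0.05. These 3 were the pseudogene Lamr1-ps1 and the non-coding 4930590L14Rik, both higher in PS19_HA (0.0104% of genes), and mt-Nd4l, lower in PS19_HA. DESeq2, the second tool, called 121 of 19273 genes (0.628%), of which 105 were higher (0.545%) and 16 lower (0.083%) in PS19_HA. In this text "rose" and "fell" are used of genes called by DESeq2, whose adjusted p by edgeR was otherwise 0.0799 to 0.462. With the replicate number as a block, edgeR called 4 genes (0.0207%) and DESeq2 266 (1.43%), 216 of them higher (1.16%) and 50 lower (0.27%). In both of its fits DESeq2 called 101 genes. The block fit also ties in the PS19_LSD1 libraries by number. On the 6 compared libraries alone, DESeq2 with the block called 126. Over all genes tested the median log2 difference was 0.0032, and 50.5% were higher in PS19_HA. CPM values of the groups did not overlap for 1509 genes that were higher (7.82%) and 1065 that were lower (5.52%) in PS19_HA.

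The number of DESeq2 calls depended on single libraries. It was 341 without PS19_HA replicate 1 and 16 without PS19_HA replicate 2. Without PS19_HA replicate 3 it was 124, and without WT_HA replicates 1, 2 and 3 it was 87, 60 and 93. Among the 121 genes, 11 were called in each of these 6 fits: Prnp, Lamr1-ps1, 4930590L14Rik, Gbp2b, Gfap, C4b, Cst7, Lgals3bp, Ctsc and Tent5c, which rose, and mt-Nd4l, which fell. None of the 121 changed sign in any of the 6 fits. They were picked by their calls on mostly the same libraries, so a sign change was unlikely from the start. Of the 11 genes called in each fit, those outside the naming rule (Lamr1-ps1, 4930590L14Rik, Lgals3bp and Tent5c) were named after their values were seen. Among rises named below, Axl, Csf1, Ccl3, C3ar1, Ifitm3, Ifi44, Ctsh and H2-Aa kept their call in only 1 of the 6 fits.

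**Figure D1:**
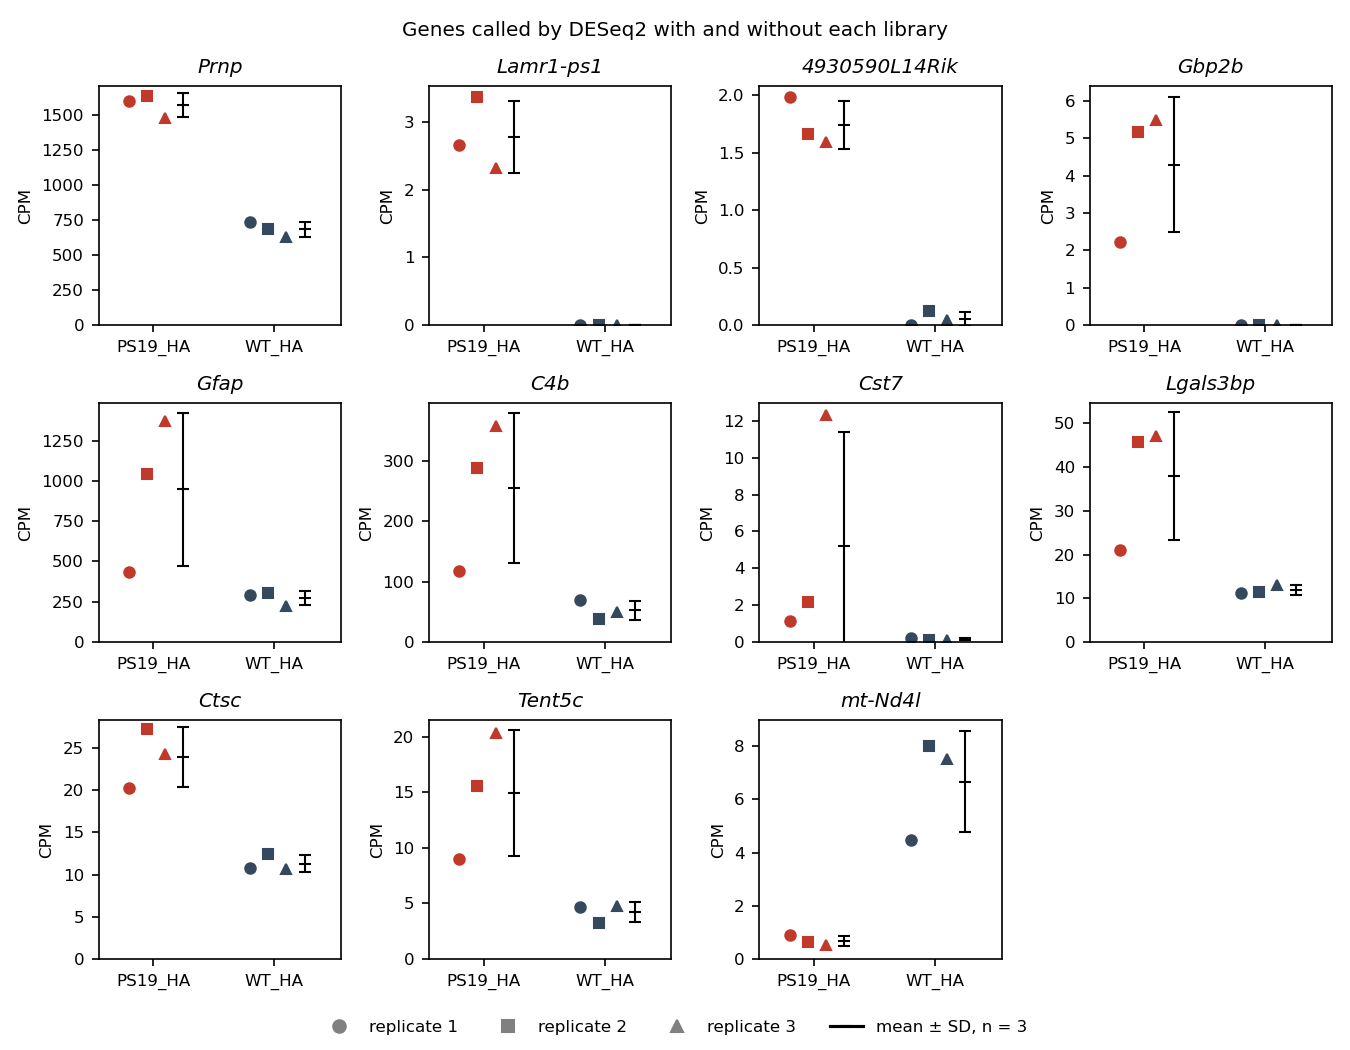
Level (CPM, vertical axes from 0) of the 11 genes that DESeq2 called with all libraries and without each of the 6 in turn. Red symbols are PS19_HA libraries and dark symbols WT_HA libraries, with the shape giving the replicate and bars the mean ± SD (n = 3), cut at 0 for Cst7. For none of the 11 do the groups overlap, and PS19_HA replicate 1 is the lowest of its group for Gbp2b, Gfap, C4b, Cst7, Lgals3bp, Ctsc and Tent5c.

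The genes tied to the transgene were examined first. Prnp encodes the prion protein, a surface protein of neurons (chromosome 2, 131909928 to 131938429, GRCm38). Its level was 1600, 1640 and 1480 CPM in PS19_HA and 736, 689 and 628 CPM in WT_HA. All PS19_HA libraries lay above all WT_HA libraries, by log2 differences of 1.12, 1.25 and 1.24 in the 3 same-numbered pairs. The DESeq2 log2 difference was 1.19 (SE 0.16, adjusted p = 2.62e-10), while the adjusted p of edgeR was 0.0799 and, with the replicate block, 0.0239. Reads of the transgene's Prnp-derived parts could not be told from those of the mouse gene.

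Lamr1-ps1, a processed pseudogene of a ribosomal protein gene on the same chromosome (131904086 to 131904959), had 59, 77 and 57 reads in PS19_HA and 0 in each WT_HA library. Against a floor of 3 reads over the WT_HA group it was at least 60.2-fold higher in PS19_HA. Its edgeR adjusted p was 0.0255 (0.0239 with the block), and its count is uncertain because near-identical copies exist. Mapt, the mouse tau gene (chromosome 11, 104231390 to 104332090), had 524, 544 and 551 CPM in PS19_HA and 508, 461 and 506 CPM in WT_HA. The groups did not overlap, and the DESeq2 log2 difference was 0.12 (SE 0.078, adjusted p = 0.686). Kdm1a, the gene of the demethylase LSD1, averaged 63.2 ± 1.27 CPM in PS19_HA and 65.3 ± 2.47 CPM in WT_HA (SD, n = 3 each), with overlapping groups.

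A further group of called genes lay close together on chromosome 3. Gbp2b, an interferon-inducible guanylate-binding GTPase (142594847 to 142619179), had 49, 118 and 135 reads in PS19_HA and 0 in each WT_HA library, which made it at least 92.8-fold higher against the same floor (DESeq2 adjusted p = 1.33e-08; 0.0799 by edgeR). The non-coding 4930590L14Rik (140951876 to 140953247) read 1.98, 1.66 and 1.59 CPM in PS19_HA and 0, 0.122 and 0.04 CPM in WT_HA (edgeR adjusted p = 0.0455, or 0.0655 with the block; DESeq2 adjusted p = 1.79e-05). Its neighbour Gm32754 (140904998 to 140917459) had 12, 12 and 8 reads in PS19_HA and 0 in each WT_HA library, at least 10-fold higher, and was called by DESeq2 alone (adjusted p = 0.01). In all 3 genes every PS19_HA library lay above every WT_HA library. Between 138 and 143 Mb of this chromosome 28 genes were tested. Of these, 19 were higher and 9 lower in PS19_HA, with a median log2 difference of 0.14. DESeq2 called only the 3 genes above, and the stretch was chosen after they were seen. Gbp2, Gbp3, Gbp5 and Gbp7, family members of Gbp2b in this stretch, overlapped between groups and were not called. Their log2 differences by DESeq2 were 0.56 to 0.89 (adjusted p = 0.294 to 0.628).

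Reactive astrocyte genes stood higher in PS19_HA as a list. Of 27 genes written in it, 26 passed the filter on low counts. Of these, 23 were higher and 3 lower, and the median log2 difference was 1.21. DESeq2 called 4, all higher (Gbp2b, Tgm1, Vim and Gfap), against 0.545% of all genes called higher. Gfap, the main intermediate filament of astrocytes (chromosome 11, 102887336 to 102900912), had 432, 1040 and 1370 CPM in PS19_HA and 289, 303 and 222 CPM in WT_HA. It rose 3.46-fold by DESeq2 (log2 difference 1.79, SE 0.35, adjusted p = 0.000483; 0.454 by edgeR). Vim, which encodes vimentin, had 40, 89.5 and 236 CPM in PS19_HA and 26, 30.3 and 30.1 CPM in WT_HA (log2 difference 2.07, adjusted p = 0.00924 by DESeq2). The Vim call was lost with the block (adjusted p = 0.0759), and its log2 difference was 1.15 without PS19_HA replicate 3. Both genes were lowest in replicate 1 and highest in replicate 3 of PS19_HA, and neither overlapped between groups. Tgm1, a transglutaminase, read 0.676, 2.45 and 6.06 CPM in PS19_HA and 0.508, 0.0612 and 0.32 CPM in WT_HA (log2 difference 3.32, adjusted p = 0.013 by DESeq2; 2.34 without PS19_HA replicate 3 and 3.92 without WT_HA replicate 1). Serpina3n, a protease inhibitor often used as a marker of this state, was not called: it had 44.2, 153 and 116 CPM in PS19_HA and 24.6, 88 and 19 CPM in WT_HA.

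In the core astrocyte list DESeq2 called no member with all libraries. There 10 of 16 genes were higher and 6 lower, the median log2 difference was 0.051 (-0.0034 without WT_HA replicate 1), and the summed level was 8910, 9070 and 8980 CPM in PS19_HA against 8750, 9550 and 8200 CPM in WT_HA. Whether both astrocyte lists differ from each other was not tested. DESeq2 calls of reactive astrocyte genes numbered 12, 3 and 3 without PS19_HA replicates 1, 2 and 3 and 3, 4 and 2 without WT_HA replicates 1, 2 and 3. With the block there were 8. Each of these counts includes Gfap and also Gbp2b, the interferon-inducible gene described above.

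Disease-associated microglia genes formed the list with the most calls. Of 32 genes 31 passed the filter, 30 were higher and 1 lower in PS19_HA, and the median log2 difference stood at 1.34. DESeq2 called 12, all higher (16 with the block), against 0.545% of all genes called higher (1.16% with the block). Cst7, the cathepsin inhibitor cystatin F, read 1.13, 2.19 and 12.3 CPM in PS19_HA and 0.212, 0.122 and 0.12 CPM in WT_HA. It rose 33.9-fold by DESeq2 (log2 difference 5.08, SE 0.94, adjusted p = 0.00015; 0.454 by edgeR). Its log2 difference was 3.43 without PS19_HA replicate 3 and 4.41 with the block. Every PS19_HA library lay above every WT_HA library, with log2 differences of 2.01, 3.42 and 5.88 in the same-numbered pairs. Clec7a, the receptor Dectin-1, had 1.49, 8.88 and 33.4 CPM in PS19_HA and 0.72, 0.735 and 0.24 CPM in WT_HA (log2 difference 4.68, SE 1.04, adjusted p = 0.0052 by DESeq2). Itgax, the integrin CD11c, had 1.49, 7.79 and 27.4 CPM in PS19_HA and 1.06, 0.674 and 0.32 CPM in WT_HA (log2 difference 4.15, SE 1, adjusted p = 0.0136 by DESeq2). In both genes PS19_HA replicate 1 was slightly above the WT_HA libraries and replicate 3 was highest. Without PS19_HA replicate 3 the log2 difference was 3.2 for Clec7a and 2.75 for Itgax, and with the block it was 3.91 for Clec7a and 3.42 for Itgax.

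The chemokine gene Ccl3 was scarcer, at 0.496, 0.787 and 2.15 CPM in PS19_HA and 0.0847, 0.0612 and 0.0799 CPM in WT_HA (adjusted p = 0.0123 by DESeq2). Trem2 and Tyrobp, a surface receptor of microglia and its signalling adaptor, also rose. Trem2 had 9.01, 17.2 and 33.9 CPM in PS19_HA and 8.05, 3.86 and 6.35 CPM in WT_HA (log2 difference 1.71, adjusted p = 0.028 by DESeq2), and Tyrobp 9.91, 16 and 32 CPM in PS19_HA against 7.45, 4.78 and 6.91 CPM in WT_HA (log2 difference 1.58, adjusted p = 0.0161 by DESeq2). Without PS19_HA replicate 3 the log2 difference was 1.09 for Trem2 and 1 for Tyrobp. The remaining called members were Axl, Csf1, Cd63, Ctsd, Lgals3 and Cybb. Trem2, Tyrobp and these 6, except Ctsd, fell outside the naming rule and were named after their values were seen. Apoe, the lipid carrier, was not called at 1090, 1630 and 1860 CPM in PS19_HA and 939, 1160 and 887 CPM in WT_HA (adjusted p = 0.202 by DESeq2). Calls in this list numbered 22, 2 and 3 without PS19_HA replicates 1, 2 and 3 and 6, 4 and 5 without WT_HA replicates 1, 2 and 3.

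Homeostatic microglia genes gave a smaller difference, with 13 of 16 higher and 3 lower and a median log2 difference of 0.49. They had 1 call by DESeq2, which was higher (2 with the block), against 0.545% of all genes called higher (1.16% with the block). There were 4 calls without PS19_HA replicate 1 and 0 without any other single library. P2ry12, the purinergic receptor that marks resting microglia, had 40, 48.4 and 45 CPM in PS19_HA and 47.4, 81.3 and 38.3 CPM in WT_HA and was not called. Markers of monocytes, macrophages and neutrophils had no call and a median log2 difference of -0.088 over 7 tested genes, whose sign changed in 4 of 17 alternative settings.

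Complement and Fc receptor genes, many of them made by microglia, also stood higher. DESeq2 called 6 of the 16 that passed the filter, all higher (5 with the block), against 0.545% of all genes called higher (1.16% with the block). Of the 16, 15 were higher and 1 lower, with a median log2 difference of 1.34. No Fc receptor gene was called without the block (adjusted p = 0.0666 to 0.589 by DESeq2), and with it Fcgr2b was (0.0336). C4b, the complement component that opens the classical pathway's convertase, had 117, 289 and 358 CPM in PS19_HA and 69.1, 38.5 and 50.2 CPM in WT_HA (chromosome 17, 34728380 to 34743882). It rose 4.8-fold by DESeq2 (log2 difference 2.26, SE 0.36, adjusted p = 2.09e-06; 0.395 by edgeR). C3, the central component, had 6.58, 23.7 and 124 CPM in PS19_HA and 3.68, 3.25 and 1.84 CPM in WT_HA (log2 difference 4.13, SE 0.94, adjusted p = 0.00679 by DESeq2). Its receptor gene C3ar1 had 3.06, 6.34 and 15.4 CPM in PS19_HA and 2.08, 2.08 and 2.12 CPM in WT_HA (adjusted p = 0.0204 by DESeq2). None of these 3 genes overlapped between groups. Without PS19_HA replicate 3 the log2 difference was 2.36 for C3 (3.46 with the block) and 1.16 for C3ar1, against 4.13 and 1.97 with all libraries. C1qa, a subunit of the initiating C1 complex, overlapped: it had 33.8, 90.8 and 144 CPM in PS19_HA and 34.3, 19.6 and 27.3 CPM in WT_HA, and its call (adjusted p = 0.0158 by DESeq2) was lost with the block (0.104). Calls numbered 9, 2 and 2 without PS19_HA replicates 1, 2 and 3 and 4, 1 and 1 without WT_HA replicates 1, 2 and 3.

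All 19 lysosome and cathepsin genes were higher in PS19_HA, with a median log2 difference of 0.75. DESeq2 called 5 and, with the block, 10, against 0.545% of all genes called higher (1.16% with the block). Ctsc, a dipeptidyl peptidase that activates granule proteases (chromosome 7, 88278085 to 88310888), had 20.2, 27.2 and 24.3 CPM in PS19_HA and 10.8, 12.4 and 10.6 CPM in WT_HA. The spread within its groups was small, and it rose (log2 difference 1.07, SE 0.2, adjusted p = 0.00024 by DESeq2; 0.373 by edgeR). Ctsd had 153, 208 and 373 CPM in PS19_HA and 102, 61.2 and 126 CPM in WT_HA (adjusted p = 0.0287 by DESeq2). Ctsh and Ctss, further cathepsins, rose with log2 differences of 1.32 (adjusted p = 0.0304) and 1.3 (adjusted p = 0.0233) by DESeq2. The groups did not overlap for any of these 4 genes. Calls in the list numbered 12, 1 and 1 without PS19_HA replicates 1, 2 and 3 and 1, 2 and 2 without WT_HA replicates 1, 2 and 3.

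**Figure D2:**
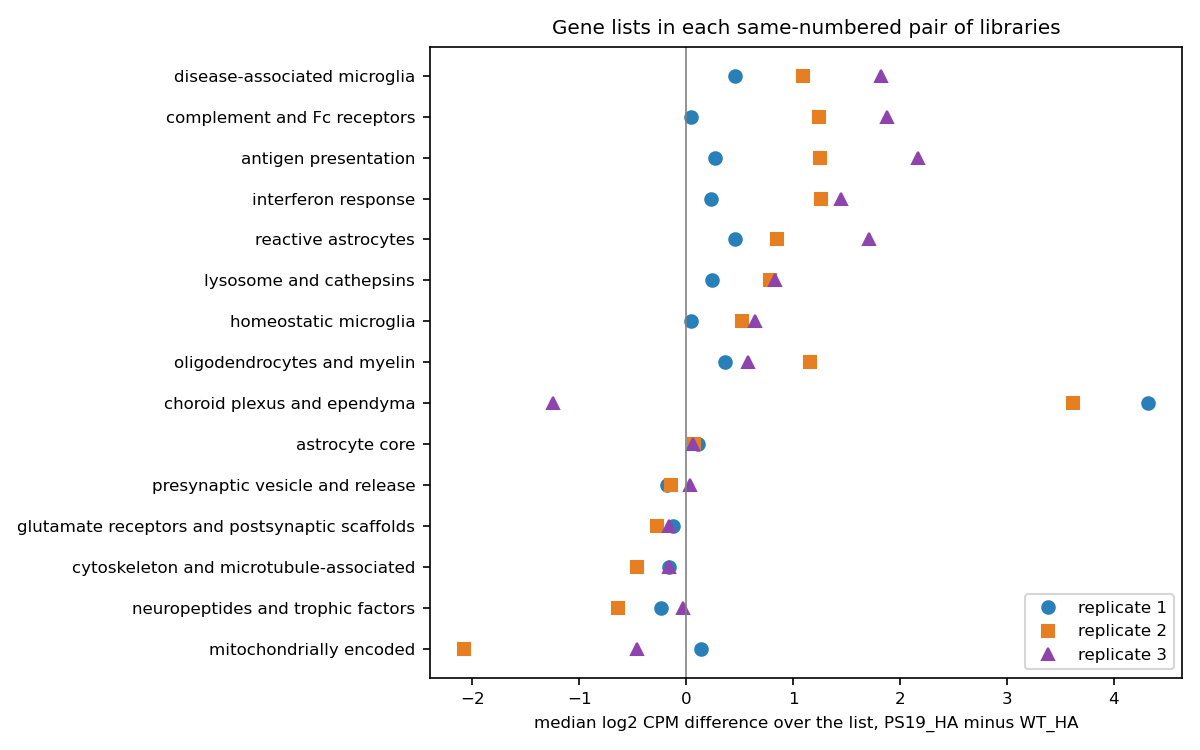
Median log2 CPM difference (PS19_HA minus WT_HA, horizontal axis) over the members of 15 gene lists, for each of the 3 pairs of libraries that share a replicate number. The lists of disease-associated microglia, complement, interferon, antigen presentation and reactive astrocytes lie between 0.047 and 0.46 in pair 1 and above 0.8 in pairs 2 and 3, the astrocyte core list near 0 in all pairs, and the choroid plexus list is at 4.32, 3.62 and -1.25.

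All 32 interferon response genes were higher in PS19_HA, with a median log2 difference of 0.95. Of these, 17 did not overlap between groups, while 7.82% of all genes were higher without overlap. DESeq2 called 4 of them (5 with the block), against 0.545% of all genes called higher (1.16% with the block). The interferon-stimulated response element is the promoter DNA sequence that ISGF3 binds. Promoters of 3 genes that rose are shown because they hold its core, printed in capitals: GAAA, any 2 bases and GAAA again, or the reverse complement with TTTC. Cxcl10 and Bst2 belong to this list, while Gbp2b was counted with the reactive astrocyte genes. They are RefSeq sequences of GRCm38.p6, 5′ to 3′ on the gene's strand, 250 bases before to 50 bases after the start. Gbp2b is at chr3:142594597-142594896 on the plus strand, Cxcl10 at chr5:92348840-92349139 on the minus strand and Bst2 at chr8:71537423-71537722 on the minus strand; in Bst2 a pair of matches overlaps.
Gbp2b: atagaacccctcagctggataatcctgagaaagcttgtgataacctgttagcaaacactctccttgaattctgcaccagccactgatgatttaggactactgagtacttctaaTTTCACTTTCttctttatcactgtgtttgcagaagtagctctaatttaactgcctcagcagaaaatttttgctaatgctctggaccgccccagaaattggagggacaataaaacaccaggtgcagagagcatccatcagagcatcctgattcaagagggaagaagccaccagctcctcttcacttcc
Cxcl10: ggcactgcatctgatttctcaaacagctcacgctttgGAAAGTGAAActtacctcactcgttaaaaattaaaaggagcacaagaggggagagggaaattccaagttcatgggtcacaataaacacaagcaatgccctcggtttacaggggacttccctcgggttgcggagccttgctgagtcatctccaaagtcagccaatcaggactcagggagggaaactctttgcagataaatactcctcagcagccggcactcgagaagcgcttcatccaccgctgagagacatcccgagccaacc
Bst2: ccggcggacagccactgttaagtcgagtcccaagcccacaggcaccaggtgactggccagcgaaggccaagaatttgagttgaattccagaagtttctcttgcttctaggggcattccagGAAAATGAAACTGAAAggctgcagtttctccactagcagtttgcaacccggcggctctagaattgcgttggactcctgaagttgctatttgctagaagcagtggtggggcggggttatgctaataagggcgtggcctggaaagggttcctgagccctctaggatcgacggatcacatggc

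The core was found in the promoter of 18 of the 23 interferon response genes that had an entry in the promoter table (78.3%) and in 9 of the 80 DESeq2 rises with an entry (11.2%). Among all genes tested with an entry it was in 470 of 12813 (3.67%), and among all 32851 promoters of the table in 1131 (3.44%). The list consists of known interferon targets, so its share is a description of the list. A match is not evidence of binding.

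Cxcl10, a chemokine that attracts activated T cells, had 1.67, 3.59 and 3.46 CPM in PS19_HA and 0.72, 0.367 and 0.44 CPM in WT_HA. It rose 5.6-fold by DESeq2 (log2 difference 2.49, SE 0.58, adjusted p = 0.00924). Bst2, the membrane protein tetherin that holds budding viruses, had 5.36, 7.52 and 7.77 CPM in PS19_HA and 2.88, 1.41 and 2.4 CPM in WT_HA (log2 difference 1.6, SE 0.32, adjusted p = 0.000754 by DESeq2). In both genes all PS19_HA libraries exceeded all WT_HA libraries, with PS19_HA replicate 1 the lowest of its group. Ifitm3, which blocks entry of viruses at endosomes, had 5.86, 10.8 and 12.5 CPM in PS19_HA and 4.15, 3.12 and 4.4 CPM in WT_HA (adjusted p = 0.0233 by DESeq2). Ifi44 had 2.03, 4.81 and 4.39 CPM in PS19_HA and 1.14, 1.16 and 0.719 CPM in WT_HA (adjusted p = 0.0215 by DESeq2). The promoter of Ifitm3 held 2 matches, both after the start, and that of Ifi44 none. Irf7, a transcription factor of the interferon response, was not called at 1.62, 4.42 and 3.37 CPM in PS19_HA and 1.48, 0.735 and 1.28 CPM in WT_HA (adjusted p = 0.219 by DESeq2). Calls in the list numbered 14, 0 and 1 without PS19_HA replicates 1, 2 and 3 and 2, 1 and 1 without WT_HA replicates 1, 2 and 3.

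All 19 antigen presentation genes were higher in PS19_HA, with a median log2 difference of 1.26. DESeq2 called 5, and 4 with the block, against 0.545% of all genes called higher (1.16% with the block). H2-K1, a classical class I molecule, had 34, 53.1 and 89.6 CPM in PS19_HA and 26.3, 17.8 and 18.4 CPM in WT_HA (log2 difference 1.49, SE 0.35, adjusted p = 0.0121 by DESeq2). H2-D1, also class I, had 47.6, 82 and 150 CPM in PS19_HA and 41.8, 29 and 27.1 CPM in WT_HA (adjusted p = 0.0251). The class II genes H2-Aa and H2-Eb1, which present peptides to helper T cells, had 5.95, 15.8 and 49.9 CPM and 4.73, 11.1 and 26.8 CPM in PS19_HA, against 3.9, 4.47 and 2.52 CPM and 2.37, 3.43 and 2.16 CPM in WT_HA (adjusted p = 0.00912 and 0.0117 by DESeq2). The groups did not overlap in any of these 4 genes, but with the block H2-D1 (adjusted p = 0.146), H2-Aa (0.129) and H2-Eb1 (0.119) were not called. Without PS19_HA replicate 3 the log2 difference was 1.57 for H2-Aa and 1.57 for H2-Eb1, against 2.71 and 2.41 with all libraries. Class I genes such as H2-K1 and H2-D1 closely resemble each other, so their counts are uncertain. Calls numbered 11, 0 and 0 without PS19_HA replicates 1, 2 and 3 and 5, 2 and 0 without WT_HA replicates 1, 2 and 3.

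Immunoglobulin genes, the antibody genes of B cells and plasma cells, included further calls. Of 264 annotated, 53 passed the filter, and 47 were higher and 6 lower in PS19_HA. DESeq2 called 6, all higher (13 with the block), against 0.545% of all genes called higher (1.16% with the block). Summed over all 264, their level was 132, 604 and 388 CPM in PS19_HA and 136, 235 and 25.9 CPM in WT_HA, so the groups overlapped and PS19_HA replicate 1 was at the WT_HA level. Ighg1, the constant region of an IgG heavy chain, had 0.451, 3.28 and 4.72 CPM in PS19_HA and 0.0424, 0.184 and 0.16 CPM in WT_HA (log2 difference 4.47, SE 0.99, adjusted p = 0.00512 by DESeq2), or 3.87 without PS19_HA replicate 3. Single variable segments were high in different libraries: Igkv12-41 had 0.18, 6.95 and 0.854 CPM and Ighv1-55 had 0.0901, 1.22 and 13.3 CPM in PS19_HA, with at most 0.0612 CPM in any WT_HA library. Ighv1-12, Ighv8-5 and Igkv4-59 were the other calls. Without PS19_HA replicates 1, 2 and 3 there were 9, 0 and 3 calls. Variable segments resemble each other, so their counts are uncertain. T cell genes had no call, and 8 of 17 passed the filter. Of these, 7 were higher and 1 lower in PS19_HA, with a median log2 difference of 1.48. Summed over all 17, their level was 5.95, 8.83 and 21.5 CPM in PS19_HA and 4.62, 4.29 and 8.03 CPM in WT_HA. The lower gene, Cd4, had 4.12 CPM in WT_HA replicate 3.

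All 17 oligodendrocyte and myelin genes were higher in PS19_HA, with a median log2 difference of 0.63. None was called by edgeR or by DESeq2 without the block. With it DESeq2 called 7, all higher, against 1.16% of all genes called higher. That block fit also ties in the PS19_LSD1 libraries by number, and their pairing was not checked. Cldn11, the claudin of myelin's tight junctions, had 126, 152 and 197 CPM in PS19_HA and 90.4, 51.5 and 110 CPM in WT_HA (adjusted p = 0.18 by DESeq2, 0.000206 with the block). Mbp, myelin basic protein, had 1870, 2490 and 2640 CPM in PS19_HA and 1520, 915 and 1980 CPM in WT_HA (adjusted p = 0.485 by DESeq2, 0.0391 with the block). Groups overlapped for Mbp and not for Cldn11, and WT_HA replicate 2, the library rich in mitochondrial reads, was the lowest library for both. Cldn11 and Mbp were chosen after their values were seen. Oligodendrocyte precursor genes had a median log2 difference near 0, with 6 of 13 higher and 7 lower.

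Choroid plexus and ependyma markers differed widely within both groups. Their summed level was 5320, 6230 and 904 CPM in PS19_HA and 212, 356 and 1760 CPM in WT_HA, so the third replicates went the other way. Ttr, the transthyretin gene of the choroid plexus, had 2910, 3170 and 351 CPM in PS19_HA and 15.4, 93.3 and 833 CPM in WT_HA (adjusted p = 0.567 by DESeq2). All 13 markers had a higher fitted value in PS19_HA (median log2 difference 2.01). None was called without the block, against 4 with it, where 1.16% of all genes were called higher. Wdr63, Dnajb13, Dnaaf3 and Catip, whose products serve cilia or flagella, were called higher by DESeq2 with adjusted p = 0.0287, 0.00441, 0.00478 and 0.0316. Without PS19_HA replicate 2 the values were 0.599, 0.149, 0.134 and 0.486, and the call of Catip was kept in 1 of the 6 fits that left out a library. Dnajb13 had 2.43, 2.8 and 1.59 CPM in PS19_HA and 0.508, 0.245 and 0.639 CPM in WT_HA, and Wdr63 had 4.24, 8.18 and 1.83 CPM in PS19_HA against 0.551, 0.306 and 1.16 CPM in WT_HA. These 4 genes were picked from the calls after their values were seen and are no list: how many other genes of cilia were called was not counted. The part of choroid plexus and ependyma in their values was not tested.

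**Figure D3:**
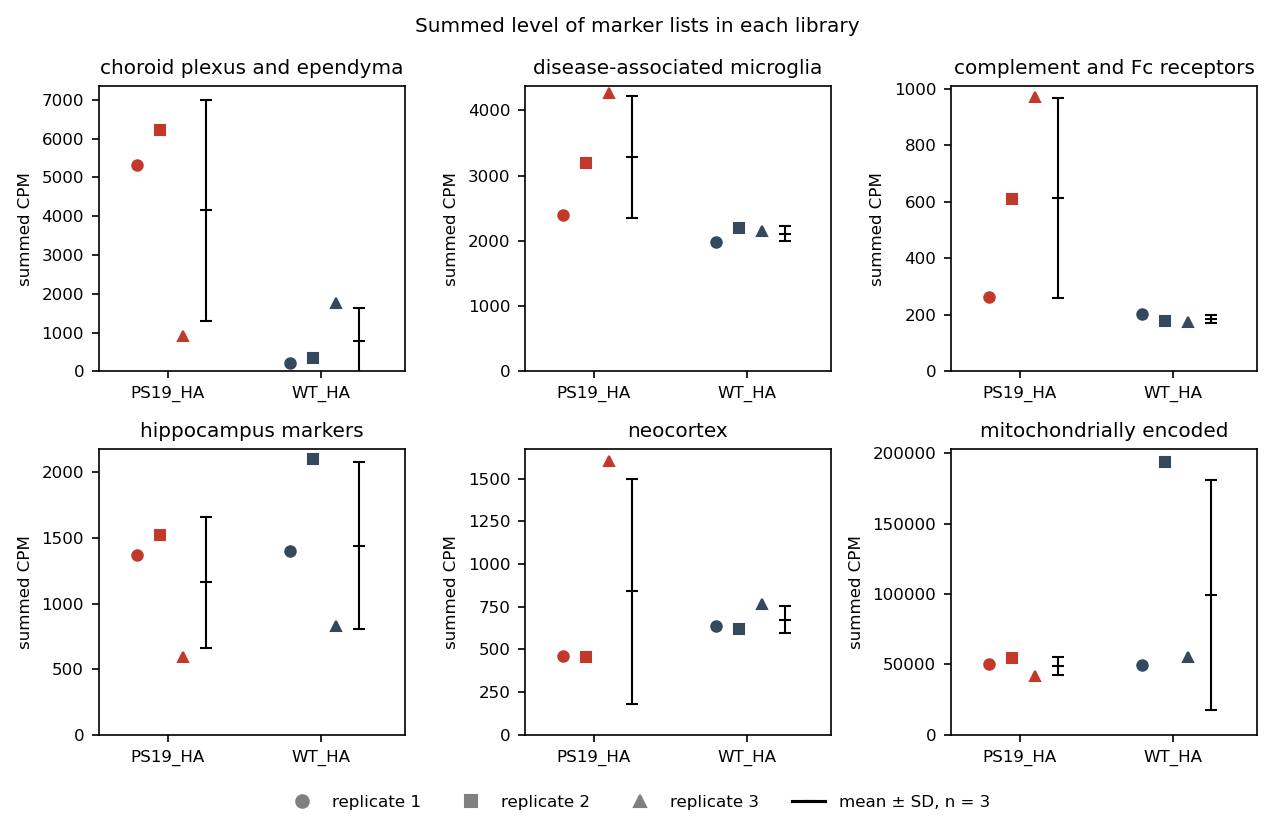
Summed CPM (vertical axes from 0) of 6 marker lists in each PS19_HA library (red) and WT_HA library (dark), with the replicate as the symbol's shape and the mean ± SD (n = 3) as bars, cut at 0. Choroid plexus and ependyma sums run from 904 to 6230 CPM in PS19_HA and from 212 to 1760 CPM in WT_HA, and the mitochondrial sum of WT_HA replicate 2 stands far above the others.

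Neuronal lists showed small differences. Of 24 glutamate receptor and postsynaptic genes 23 were lower and 1 higher in PS19_HA with a median log2 difference of -0.17. Of 22 presynaptic genes 19 were lower and 3 higher with a median of -0.12. No member of either was called by either tool. The presynaptic median was -0.18, -0.14 and 0.037 in the 3 same-numbered pairs. Summed presynaptic levels overlapped, at 12500, 12000 and 13000 CPM in PS19_HA and 13900, 16300 and 12300 CPM in WT_HA. WT_HA replicate 2, the library rich in mitochondrial reads, was highest. The 18 genes of the cytoskeleton list had a median of -0.24, with 16 lower. Lists of CA1, CA3 and dentate granule neurons had medians of -0.14, -0.15 and 0.043 and no call without the block; the sign of the dentate granule median changed in 8 of 17 alternative settings and that of CA3 in 1. Among 17 neuropeptide and trophic factor genes 15 were lower (median -0.16). With the block alone DESeq2 called Penk, Tac1 and Sst lower, against 0.27% of all genes called lower. That block fit also ties in the PS19_LSD1 libraries by number, and their pairing was not checked. Penk, the enkephalin precursor, had 17.6, 18.4 and 53.9 CPM in PS19_HA and 33.1, 68.5 and 130 CPM in WT_HA (adjusted p = 0.673 by DESeq2, 9.52e-06 with the block). Penk was lower in PS19_HA in each same-numbered pair, and it was highest in the third replicate of both groups. Summed striatum markers, which come from a neighbouring region, were at 204, 206 and 437 CPM in PS19_HA and 249, 272 and 705 CPM in WT_HA, and also highest in the third replicates.

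Falls numbered 16, and the 11 named beside mt-Nd4l had log2 differences of -1.27 to -0.36 by DESeq2. Tshz2, a zinc finger transcription factor, had 14.3, 7.57 and 7.11 CPM in PS19_HA and 21.1, 25.6 and 22.3 CPM in WT_HA (log2 difference -1.27, SE 0.28, adjusted p = 0.00478 by DESeq2). Vwc2l, which encodes a secreted protein with von Willebrand C domains, had 10.5, 4.72 and 8.74 CPM in PS19_HA and 20, 12.5 and 21.2 CPM in WT_HA (log2 difference -1.18, adjusted p = 0.0385). Syt10, a synaptotagmin that acts as a calcium sensor for secretion, had 7.26, 6.3 and 4.76 CPM in PS19_HA and 9.74, 10.9 and 10.6 CPM in WT_HA (log2 difference -0.78, adjusted p = 0.0304). In each of these the groups did not overlap, which the naming rule required of them. Xkr4, Ldb2, Tenm1, Snhg14, Lrrc7, Wnk3, Stxbp5l and Akap11 fell with log2 differences between -0.65 (Xkr4) and -0.36 (Akap11). Snhg14, the long non-coding host transcript of the Snrpn and Ube3a locus, had 106, 89.6 and 89 CPM in PS19_HA and 141, 133 and 146 CPM in WT_HA (log2 difference -0.57, SE 0.11, adjusted p = 0.000335) and kept its call in 5 of the 6 fits that left out a library. Lrrc7, the postsynaptic scaffold densin, had 73.7, 75.5 and 64.5 CPM in PS19_HA and 101, 110 and 95.7 CPM in WT_HA (log2 difference -0.54, adjusted p = 0.00617). Tshz2 and Lrrc7 kept their call in 4 of these 6 fits, Ldb2 in 3, and Vwc2l and Stxbp5l in 2. Xkr4, Syt10, Tenm1, Wnk3 and Akap11 kept it in 1 fit each. Without PS19_HA replicate 2 DESeq2 called a single fall, mt-Nd4l. Stxbp5l (adjusted p = 0.0644) and Akap11 (0.06) were not called with the block.

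All 15 mitochondrially encoded genes had a lower fitted value in PS19_HA, with a median log2 difference of -1.18. Summed, they stood at 50100, 54400 and 42100 CPM in PS19_HA and at 49400, 194000 and 55100 CPM in WT_HA, and the median difference was 0.14, -2.08 and -0.46 in the 3 same-numbered pairs. WT_HA replicate 2 was thus the only library that stood apart. Without the block only mt-Nd4l, a subunit of respiratory complex I (mitochondrial genome, 9877 to 10173), was called. It had 0.901, 0.656 and 0.529 CPM in PS19_HA and 4.49, 8.02 and 7.51 CPM in WT_HA, so it was lower in PS19_HA in each pair, by log2 differences of -2.21, -3.44 and -3.62. The fitted log2 difference was -3.26 (SE 0.31, adjusted p = 0.0255 by edgeR). Its neighbour mt-Nd4 overlaps it by a few bases (10167 to 11544) and had 3360, 3610 and 2720 CPM in PS19_HA and 3050, 15200 and 3670 CPM in WT_HA. How reads in such overlaps were counted is not given in the sources used here, so the level of mt-Nd4l is uncertain.

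The tau comparison of the 9-month cohort, PS19 against WT with 4 libraries each and no injection, was set beside these values in a fit of all 23 libraries. Its groups share no library with PS19_HA or WT_HA, but age, injection, cohort and the mix of sexes differ together and cannot be told apart. All PS19 and WT libraries at 9 months were male-type, while replicates 1 and 2 of PS19_HA and of WT_HA were female-type. At 9 months, mitochondrial genes took 3.826%, 3.742%, 33.916% and 6.039% of the reads in WT and 3.273%, 3.327%, 16.117% and 5.272% in PS19. Replicate 3 stood apart in both and had the fewest reads of its group, 15743147 in WT and 16214938 in PS19. Whether these shares had a part in the 9-month values, that of mt-Co3 below included, was not tested. No gene of 20931 was called for a difference between the tau effects, by edgeR (119 at an unadjusted p under 0.05) or by DESeq2 (143). Prnp had a log2 difference of 1.21 (SE 0.21) at 11 months and 1.08 (SE 0.18) at 9 months. Gfap had 1.81 (SE 0.5) at 11 months and 2.58 (SE 0.44) at 9 months, and C4b had 2.27 (SE 0.68) at 11 months and 2.96 (SE 0.6) at 9 months. Cst7 had 5.03 (SE 1.11) at 11 months and 6.44 (SE 1.04) at 9 months. The differences between the ages were 0.12 (SE 0.27) for Prnp, -0.77 (SE 0.64) for Gfap, -0.69 (SE 0.86) for C4b and -1.41 (SE 1.56) for Cst7, each with an adjusted p of 1 by edgeR.

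Interferon genes had a median log2 difference of 0.95 at 11 months and 2.36 at 9 months. All 32 had the smaller difference at 11 months, and 11 of them had an unadjusted p under 0.05 in that direction, where 0.277% of all genes did; 0.291% of all genes had one in the other direction, and no interferon gene. With predicted genes (Gm and Rik names) set aside, the 5 genes with the lowest p for the difference were Ifi211, Ifit1, Zbp1, mt-Co3 and Oasl1. Ifit1, an antiviral RNA-binding protein, had a log2 difference of 1.02 (SE 0.52) at 11 months and 3.37 (SE 0.49) at 9 months. These differ by -2.35 (SE 0.7, adjusted p = 1 by edgeR). Cxcl10 had 2.48 (SE 0.71) at 11 months and 5.33 (SE 0.71) at 9 months (difference -2.85, SE 0.98, adjusted p = 1 by edgeR). No adjusted p passed, so a smaller interferon difference at 11 months was not established for any gene.

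**Figure D4:**
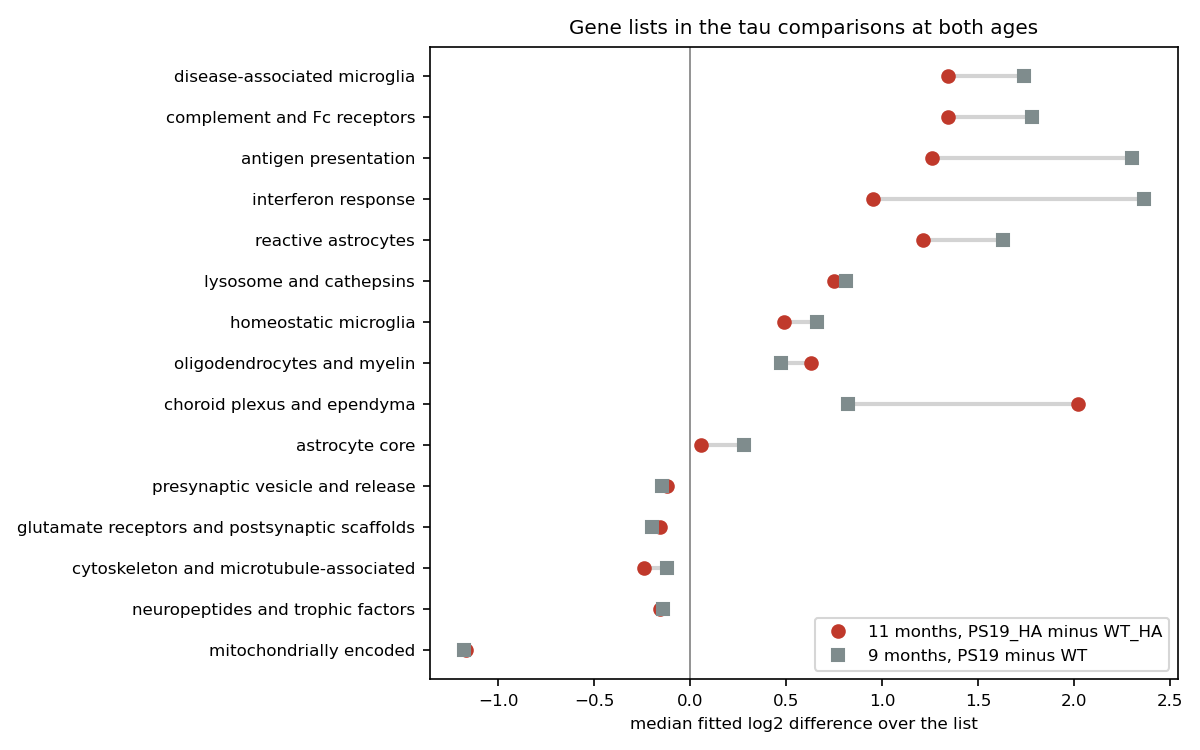
Median fitted log2 difference (horizontal axis) over 15 gene lists at 11 months (PS19_HA minus WT_HA, red circles) and at 9 months (PS19 minus WT, grey squares), from a fit of 23 libraries. The interferon list is at 0.95 at 11 months and 2.36 at 9 months, the disease-associated microglia list at 1.34 at 11 months and 1.74 at 9 months, and the neuronal lists lie close to 0 at both ages.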

How the data were processed

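Poly(A) RNA of mouse hippocampus was sequenced in 23 libraries. Per the submitters' processing notes, FastQC 0.11.7, Trimmomatic 0.36.5, HISAT2 2.1.0, featureCounts 1.6.0.6 and DESeq2 2.11.40.2 were used with build GRCm38; no annotation release, strand setting or rule for multiply aligned reads is stated in them. The authors deposited 1 file of whole-number counts per library, not normalized, with 54232 gene identifiers. GENCODE M21 named 54165 of them; the other 67, with 0.0184% of the reads, stayed in unnamed.

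Counts of the 9 libraries of the 11-month cohort were fitted with edgeR 4.0.16 in R 4.3.3 (robust quasi-likelihood, TMM, filterByExpr with minimum count 10 and minimum total 15), and the contrast PS19_HA minus WT_HA was tested over 19290 genes. The biological coefficient of variation was 0.243. The difference of the tau effects at 11 and 9 months was fitted on 23 libraries. The alternative tool was DESeq2 1.42.0, which gave no adjusted p for 17 genes, and for 748 with the block; these were left uncalled. Log2 CPM used a prior count of 2. Between replicates of a group the chi-square per gene was at least 10.5, so none was a repeat of another library. The test scripts were checked on simulated data.

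The groups share replicate numbers. Deviations of same-numbered libraries from their group means correlated at 0.113, 0.299 and 0.251, above 0.1 in each of the 3 pairs, and each PS19_HA library correlated best with its own number. The numbers were therefore taken to pair the libraries; the pairing comes from the data, since the labels do not state it. This was checked for PS19_HA and WT_HA only. The block in the fit of 9 libraries also ties in PS19_LSD1, of which replicate 1 was male-type and replicates 2 and 3 female-type, unlike the other groups.

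The comparison, the 38 gene lists and the naming rule were chosen with earlier results of these data known, so lists have counts and medians and no test. Named were the 12 largest rises and falls among called genes averaging 1 CPM or more whose groups were fully separated (edgeR's calls first, then DESeq2's), up to 4 called members per list, 9 fixed genes, and the 5 lowest p of the difference. Predicted genes, pseudogenes and sex markers were not named unless singled out; Clec7a, a polymorphic pseudogene in the annotation, was treated as a gene. Of the genes so taken, some are not reported here. Alternatives were the block, DESeq2, RLE scaling, no filter, the 6 compared libraries alone, other edgeR settings, a sex-type term, mitochondrial genes left out, and each library left out in turn. Those run with DESeq2 were added after the data were seen.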

Additional observations from a re-analysis of the deposited data

How the results depend on the processing

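The count of edgeR calls between PS19_HA and WT_HA was 3, and it was 4 with the replicate block, 5 with no filter, and 0 with the sex-type term, with mitochondrial genes left out, or with the 6 compared libraries alone, with or without the block. RLE scaling and fitting without robust estimation gave 3, and edgeR's newer quasi-likelihood method gave 2. Leaving out 1 library gave 0 to 8 calls. DESeq2 called 121, and 266 with the block, of which 101 were shared; leaving out 1 library gave 16 to 341, and no filter, the 6 libraries alone, the sex-type term and mitochondrial genes left out gave 104 to 127. On the 6 libraries with the block it called 126, so the count of 266 was reached only with the PS19_LSD1 libraries in the fit. The block ended 18 of DESeq2's 121 calls, left the adjusted p of 2 undefined, and changed the call of the genes named above with it. None of the 121 genes changed sign when 1 library was left out, which their selection on mostly the same libraries made likely. The medians of 16 lists changed sign in at least 1 setting (46 of 645 values), among them astrocyte core, monocytes, dentate granule, CA3, hippocampus, striatum, thalamus and neocortex; the lists of disease-associated microglia, complement, interferon, antigen presentation, reactive astrocytes, lysosome, myelin, choroid plexus and synapses kept theirs in every setting run. Over all genes the median was 0.0032, and -0.011 with RLE. The difference between the ages had 0 calls in every fit run. The causes of these changes were not tested. Depth limits the genes without reads in WT_HA, whose folds are lower bounds from a floor of 3 reads.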
